A study of Mus musculus with 9 samples.

Results

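A set of 9 regulators of the early neural plate was followed by RNA-seq in mouse embryonic stem cells (ESCs) in which a forced homodimer of the E2A transcription factor was switched on. The 9 genes, Foxd4, Gmnn, Zic1, Zic2, Zic5, Pax6, Irx3, Hesx1 and Six3, were taken by name from the 47729 genes of the expression table, and all 9 were found. Of these, 7 were among the 17951 genes that were abundant enough to be tested, and Zic1 and Six3 were not. All cells were 1 engineered ESC line carrying a doxycycline-inducible transgene, a FLAG-tagged mouse E47 (an E2A protein) fused through a flexible linker to a further E47 and placed upstream of the Hprt gene by cassette exchange. They were kept in medium with LIF and serum, on gelatin, in conditions that maintain pluripotency. Libraries were made from untreated cells (0 h) and from cells given doxycycline at 1 µg/ml for 18 h or 24 h, with 3 replicates at each time point and 9 libraries in all. The titles and treatment entries give these times, whereas a general treatment note in the labels gives other durations. Doxycycline-treated cells without the transgene, and cells kept untreated for 18 h or 24 h, were not analysed here. Effects of the drug, of time in culture and of the E47 dimer therefore cannot be told apart. The study describes the replicates as biological, while the labels do not say how their cultures were kept apart.

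The neural plate is the sheet of ectoderm that gives rise to the brain and spinal cord. Foxd4, a forkhead factor, Gmnn (geminin, which also restrains DNA replication licensing) and the zinc finger Zic proteins are known to hold ectodermal cells in an immature neural state. The homeodomain factors Hesx1 and Six3 mark the most anterior plate, Irx3 lies behind the forebrain, and the paired-box gene Pax6 is a regulator of eye, forebrain and neural progenitors. E2A proteins are basic helix-loop-helix (bHLH) factors that bind E-boxes, sites with the letters CANNTG, and E47 can bind them as a homodimer.

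Sequence around the start of transcription is shown for Foxd4 and Irx3, the members that rose. Each window is from RefSeq (build GRCm38.p6) and holds 250 bases before the start and 50 bases from it, written 5′ to 3′ on the gene's own strand in lower case, with any CANNTG in capitals.
Foxd4, chr19:24900967-24901266, minus strand: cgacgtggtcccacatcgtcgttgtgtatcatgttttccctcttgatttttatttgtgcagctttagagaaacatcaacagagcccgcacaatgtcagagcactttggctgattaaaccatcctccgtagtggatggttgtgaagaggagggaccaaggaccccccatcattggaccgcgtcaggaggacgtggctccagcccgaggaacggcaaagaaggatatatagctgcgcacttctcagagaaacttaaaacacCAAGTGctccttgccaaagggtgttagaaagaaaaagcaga
Irx3, chr8:91801605-91801904, minus strand: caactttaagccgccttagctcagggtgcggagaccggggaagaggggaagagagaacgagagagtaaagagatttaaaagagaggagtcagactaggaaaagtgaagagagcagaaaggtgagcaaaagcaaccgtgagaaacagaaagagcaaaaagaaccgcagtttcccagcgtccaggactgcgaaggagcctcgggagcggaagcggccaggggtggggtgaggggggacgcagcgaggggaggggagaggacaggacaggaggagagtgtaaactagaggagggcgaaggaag
The Foxd4 window held 1 E-box, CAAGTG, whose first base lay 10 bases into the transcript when the first transcribed base is counted as 1. The Irx3 window held none. RefSeq windows were found for 7 members (8 windows, with 2 starts for Pax6), and Gmnn and Zic2 were not matched. An E-box was present in the windows of 5 members, Foxd4, Zic1, Zic5, Hesx1 and Pax6 (at 1 of its 2 starts). CANNTG, which reads the same on both strands, was present in 72.3% of all 32851 windows of this length. The more specific E-boxes CAGCTG (16.3% of all windows) and CACCTG, searched on both strands and thus also as CAGGTG (20.2%), were in none of the members' windows. GENCODE places the 5′ end of Foxd4 at 24901197, inside the window shown though not at its start. The GENCODE 5′ ends of Irx3, Hesx1 and Six3 lie outside their RefSeq windows, that of Irx3 by 163 bases and that of Hesx1 by 5696, so the counts of E-boxes do not describe those starts. These matches describe the letters in the windows and not binding.

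Each library held between 22028363 and 26471569 reads on genes. The Tcf3 gene, which encodes E2A, was measured at 39.1±1.80 FPKM in untreated cells, 110±5.52 after 18 h and 102±7.55 after 24 h (mean±s.d., n=3), where FPKM is fragments per kilobase of transcript, scaled to library size, and transcripts of the gene and of the transgene are not separated. ESC markers were abundant throughout. Their 12 genes summed to 1480 to 2178 FPKM in untreated cells, 1160 to 1808 after 18 h and 1090 to 1753 after 24 h, and Tdgf1 was the marker among the 12 that passed the threshold, falling by 1.27 and 1.46 on the log2 scale. Below the minimum change at 24 h, Nanog was higher (0.86, adjusted p = 0.0074) and Pou5f1 lower (-0.58, adjusted p = 0.0220). The 8 neuronal markers summed to 67.8 to 81.5 FPKM in untreated cells, 77.6 to 96.2 after 18 h and 81.7 to 107 after 24 h. Of these, Tubb3 averaged 41.5 FPKM in untreated cells and 63.1 after 24 h, whereas Stmn2 averaged 27.9 and 23.2, and none of the 7 tested passed the threshold. The 8 fibroblast markers summed to 7.58 to 15.7, 7.61 to 12.2 and 7.97 to 12.8 FPKM, with Pdgfrb passing the threshold upward after 24 h (1.10) and Thy1 at -0.74 (adjusted p = 0.0494), and the 8 mesendoderm markers to 2.89 to 3.92, 2.50 to 3.98 and 2.94 to 3.52 FPKM. None of the mesendoderm markers passed the threshold. Their log2 fold-changes after 24 h included 1.38 for Gsc (adjusted p = 0.0508), 0.65 for Foxa2 (0.123) and -0.90 for T (0.217). Gsc and Foxa2, at means of 0.0110 and 0.0905 FPKM in untreated cells, were abundant enough to be tested only through their induced libraries. No marker was at 0 in all libraries of a time point. The part of these shifts in the results that follow was not tested, and in bulk RNA fewer cells of a type and less RNA per cell cannot be told apart.

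Foxd4 rose after 18 h and stayed high after 24 h, Irx3 rose by 24 h, and none of the other 5 members tested passed the threshold at either time. The threshold was an adjusted p of at most 0.05 with at least a 2-fold change, that is 1 on the log2 scale, in limma across all 17951 genes. At 18 h, 1 of the 7 members tested was upregulated (1.33% of all genes were) and 0 were downregulated (0.724% of all genes). By 24 h, 2 were upregulated (2.07% of all genes) and 0 downregulated (0.836%). With no correction for multiple tests, 4 of the 7 had p under 0.05 after 18 h (25.4% of all genes) and 5 after 24 h (28.2% of all genes). Members that passed the filter only because they are high after induction had to differ, so these counts are descriptions. The median log2 fold-change of the 7 was 0.01 after 18 h and 0.09 after 24 h, beside -0.0030 and 0.0040 over all genes tested.

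**Figure D1:**
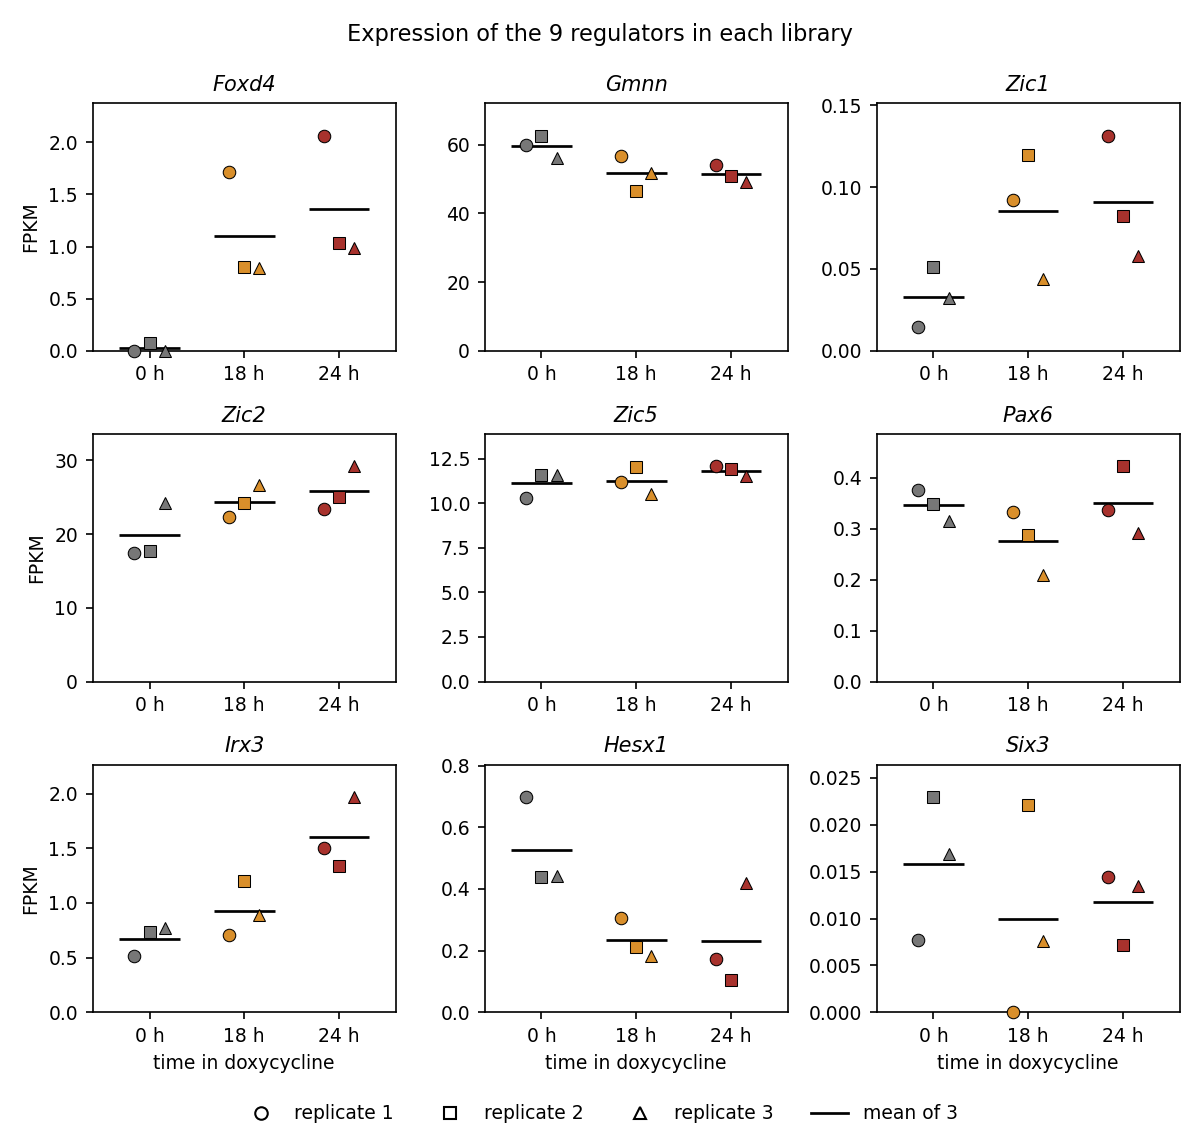
FPKM (vertical axes, linear from 0, scaled for each gene) of the 9 regulators at 0, 18 and 24 h of doxycycline. Each symbol is 1 library, its shape gives the replicate number, and bars are means of 3; for Foxd4 all 6 libraries after induction lie above all 3 in untreated cells, for Irx3 the 24 h libraries lie above the rest, and Zic5, Pax6 and Six3 overlap at all times.

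Foxd4 (ENSMUSG00000051490) is a gene with 1 exonic block of 1962 bases at chr19:24899236-24901197 (minus strand, GRCm38). Its FPKM in replicates 1, 2 and 3 was 0, 0.0711 and 0 in untreated cells, 1.72, 0.804 and 0.793 after 18 h, and 2.06, 1.04 and 0.987 after 24 h. The 3 libraries at 0 h held 4 Foxd4 reads in all, and every induced library was above them. Replicate 1 was the highest at both 18 h and 24 h, at about the sum of the other two. Over the libraries of a time point, reads numbered 4, 184 and 248. Relative to total reads, this made Foxd4 45.6-fold higher after 18 h (95% interval 17.5 to 169, exact binomial) and 57.1-fold higher after 24 h (22.0 to 211), and both intervals cover counting error only. All 4 reads at 0 h were in replicate 2, so these ratios rest on that library, within which Foxd4 was 11.3 times its 0 h level after 18 h and 14.6 times after 24 h in the authors' scaled counts.

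The fitted log2 fold-change of Foxd4 depended on how the few reads at 0 h were handled. It was 3.25 after 18 h (s.e. 0.385; adjusted p = 0.00234 by limma) and 3.54 after 24 h (s.e. 0.385; adjusted p = 0.00123) on the log2(FPKM+0.1) scale, 5.37 and 5.67 in edgeR on reads, and 1.01 and 1.18 with a pseudocount of 1. At a mean of 0.0237 FPKM in untreated cells, Foxd4 passed the filter only through its induced libraries, so its calls are descriptions. It was also called with no filter (adjusted p = 0.00625 and 0.00351). Foxd4 was called in all 9 fits that left out 1 library, but these kept the same filter, so those calls are descriptions too. It was not tested with a minimum mean of 1 FPKM. Among upregulated genes its fold-change ranked 8 of 239 after 18 h and 6 of 371 after 24 h in limma, 10 of 383 and 6 of 539 in edgeR, and 4 at both times in DESeq2. Between both induced times Foxd4 changed by 0.29 on the log2 scale, with an adjusted p of 0.978 in limma and 0.778 when the replicates were blocked. Within replicates 1, 2 and 3, Foxd4 after 24 h was 1.20, 1.29 and 1.23 times its 18 h level in the authors' scaled counts. All 3 ratios were above 1, though the libraries of 18 h and 24 h overlapped.

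**Figure D2:**
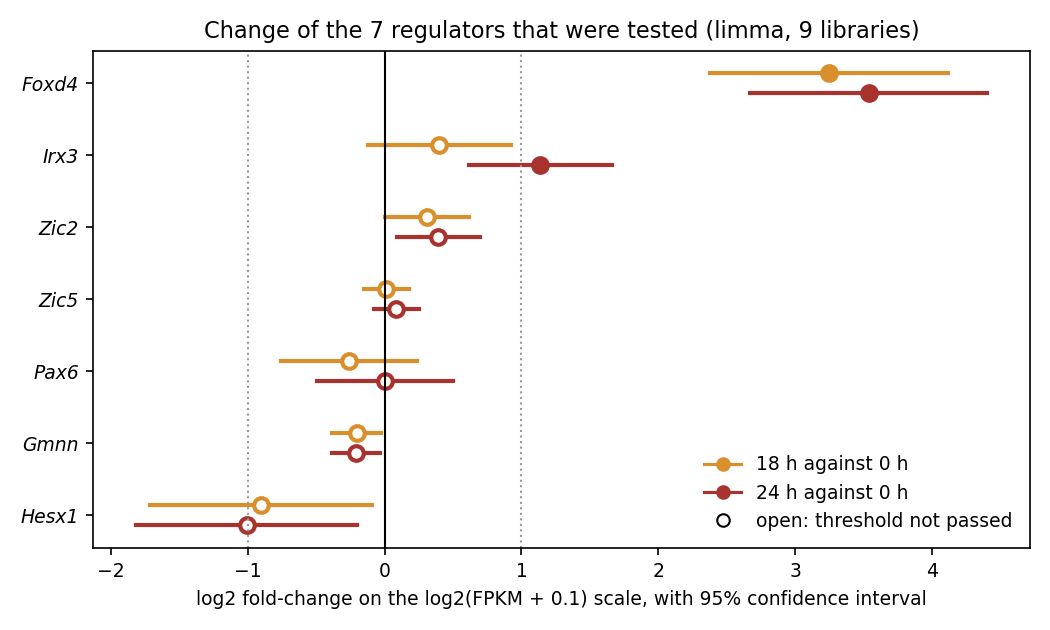
Log2 fold-change on the log2(FPKM + 0.1) scale (horizontal axis) for the 7 members tested, after 18 h and 24 h against 0 h, with 95% confidence intervals from limma. Filled points passed the threshold and dotted lines mark a change of 1; Foxd4 (3.25 and 3.54) and Irx3 after 24 h (1.14) are filled, and the intervals of Zic5 and Pax6 include 0 at both times.

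Foxd3, the forkhead relative that supports pluripotency and marks neural crest, moved the other way. It was measured at 10.5, 8.75 and 6.63 FPKM in untreated cells, 5.01, 4.47 and 4.25 after 18 h and 4.13, 2.97 and 3.97 after 24 h. All induced libraries were below all 0 h libraries. Foxd3 fell by 1.19 on the log2 scale after 24 h (s.e. 0.176; adjusted p = 0.00469), and its log2 fold-change was -0.88 after 18 h (adjusted p = 0.0196), short of the minimum change. Foxd4 made up 0.266%±0.461 of the summed FPKM of Foxd1, Foxd2, Foxd3 and Foxd4 at 0 h (mean±s.d., n=3), 18.4%±5.86 after 18 h and 25.4%±6.72 after 24 h. Its share was lowest at 15.0% among the 18 h libraries and 19.0% among the 24 h libraries, and highest at 0.798% among those at 0 h. Foxd1 and Foxd2 averaged 1.19% and 2.64% of the sum after 24 h, and most of it remained Foxd3.

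**Figure D3:**
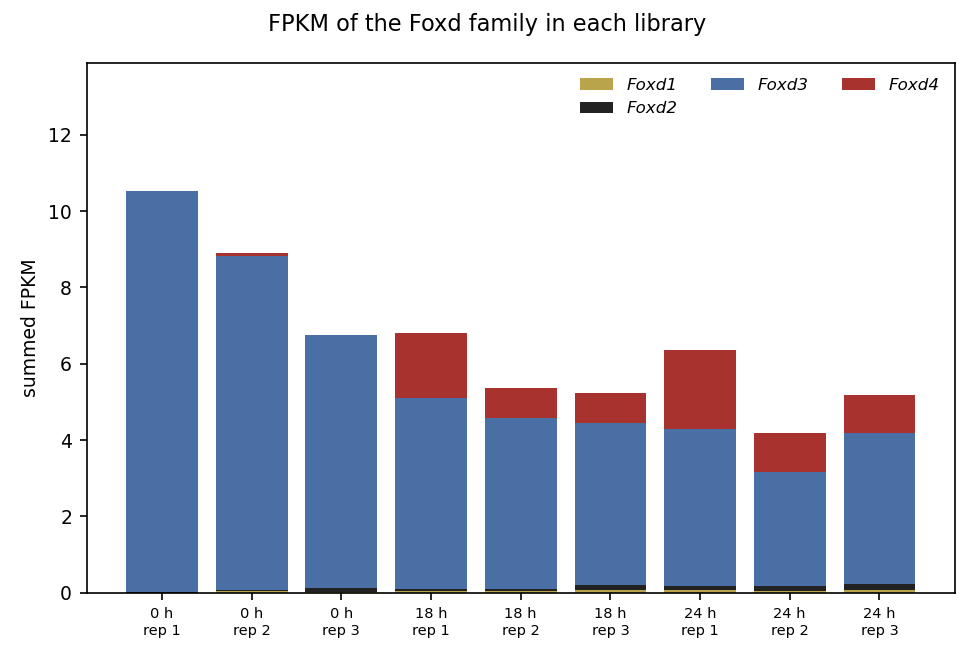
Summed FPKM (vertical axis, from 0) of Foxd1, Foxd2, Foxd3 and Foxd4 in each of the 9 libraries (horizontal axis), stacked by gene. The red part is Foxd4, nearly absent in untreated cells and between 14.97% and 32.4% of the sum in the induced libraries.

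A set of 5 genes on the higher-coordinate side of Foxd4 on chromosome 19 was examined, and none passed the threshold in limma. Genes on the other side were not analysed here. Cbwd1, which is 18718 bases away, had log2 fold-changes of 0.0033 after 18 h and 0.01 after 24 h. Farther along, between 335777 and 771213 bases from Foxd4, lie Kank1, a regulator of the cytoskeleton, and the DM-domain genes Dmrt1, Dmrt2 and Dmrt3. At 24 h the log2 fold-change was 0.43 for Kank1 (adjusted p = 0.0491), 0.70 for Dmrt1 (0.0797), 0.71 for Dmrt2 (0.127) and 0.89 for Dmrt3 (0.0347). Each of these values is positive and below the minimum change of 1 on this scale. Dmrt2 averaged 0.0617 FPKM in untreated cells and 0.0944 after 18 h. It passed the filter only through its 24 h libraries, which favoured a positive value, so its value is a description. In edgeR on reads with the replicate block, Dmrt3 passed at 24 h (1.06, adjusted p = 0.0034), whereas Dmrt2 was at 1.38 with an adjusted p of 0.0581. In that fit Dmrt1 was at 0.70 (adjusted p = 2.2e-06) and Kank1 at 0.42 (adjusted p = 0.00044), both below the minimum change. Cbwd1 was at 0.0051 (adjusted p = 0.961).

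Among 11893 genes with a mean of at least 1 FPKM, the 5 whose log2(FPKM+0.1) followed Foxd4 most closely over the 9 libraries were Hes6, Trp53i11, Aldh1a2, Parp12 and Irf1, with Pearson's r from 0.985 to 0.988. These values are descriptions, since the genes share libraries and time points. Hes6 encodes a bHLH protein that promotes neurogenesis, Aldh1a2 a retinoic acid synthesising enzyme and Irf1 an interferon regulatory factor. Hes6 measured 7.58, 7.95 and 6.74 FPKM in untreated cells, 24.9, 18.5 and 16.3 after 18 h, and 24.7, 18.5 and 16.3 after 24 h. Like Foxd4, it was highest in replicate 1 at both induced times. Aldh1a2 measured 0.574 to 0.791 FPKM in untreated cells, 2.08 to 2.61 after 18 h and 2.43 to 2.61 after 24 h.

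Irx3 (ENSMUSG00000031734), an Iroquois homeodomain gene at chr8:91798525-91802067 (minus strand, GRCm38), passed the threshold at 24 h and not at 18 h. Its FPKM was 0.514, 0.734 and 0.775 in untreated cells, 0.703, 1.20 and 0.887 after 18 h, and 1.51, 1.34 and 1.97 after 24 h. The 18 h libraries overlapped those in untreated cells, and every 24 h library was above every 18 h and 0 h library. Its log2 fold-change was 0.40 after 18 h (adjusted p = 0.317) and 1.14 after 24 h (s.e. 0.231; adjusted p = 0.0168, with 7.97e-05 to 0.0695 over the alternatives). In reads, Irx3 numbered 122, 176 and 329 over the 3 libraries of each time. Per total reads it was 1.43-fold higher after 18 h (1.13 to 1.82) and 2.48-fold higher after 24 h (2.01 to 3.08, both counting error only). Within replicates 1, 2 and 3, Irx3 after 18 h was 1.37, 1.63 and 1.14 times its 0 h level in the authors' scaled counts. The call after 24 h was lost without 0 h replicate 1 (0.98, adjusted p = 0.0574) and without 24 h replicate 3 (0.99, adjusted p = 0.0695). Between both induced times its level differed by 0.74 on the log2 scale, with a limma p of 0.0106 before adjustment and 0.857 after it (0.259 with the replicate block). In edgeR on reads with the block the difference was 0.78 with an adjusted p of 0.0487, below the minimum change of 1.

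Irx3 overlaps the antisense gene Irx3os, whose reads numbered 1, 1 and 9 in untreated cells, 4, 7 and 3 after 18 h and 2, 9 and 17 after 24 h. The library kit keeps strand, but whether the counting used it is not given in the sources used here. Irx5, the neighbouring Iroquois gene 555558 bases away start to start, had a log2 fold-change of 0.23 after 18 h and 0.61 after 24 h. The adjusted p at 24 h was 0.0601 in limma, or 0.0176 with the replicate block, and all 24 h libraries were above all 0 h libraries. Irx4 belongs to the other Iroquois cluster, on chromosome 13, and rose at both times. Its FPKM was 0.338, 0.463 and 0.300 in untreated cells, 1.58, 0.970 and 1.21 after 18 h and 1.74, 1.28 and 1.75 after 24 h, with log2 fold-changes of 1.52 (adjusted p = 0.00534) and 1.86 (adjusted p = 0.00172). Irx1 and Irx2 did not pass, at 0.64 and 0.46 after 24 h (adjusted p = 0.275 and 0.384).

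**Figure D4:**
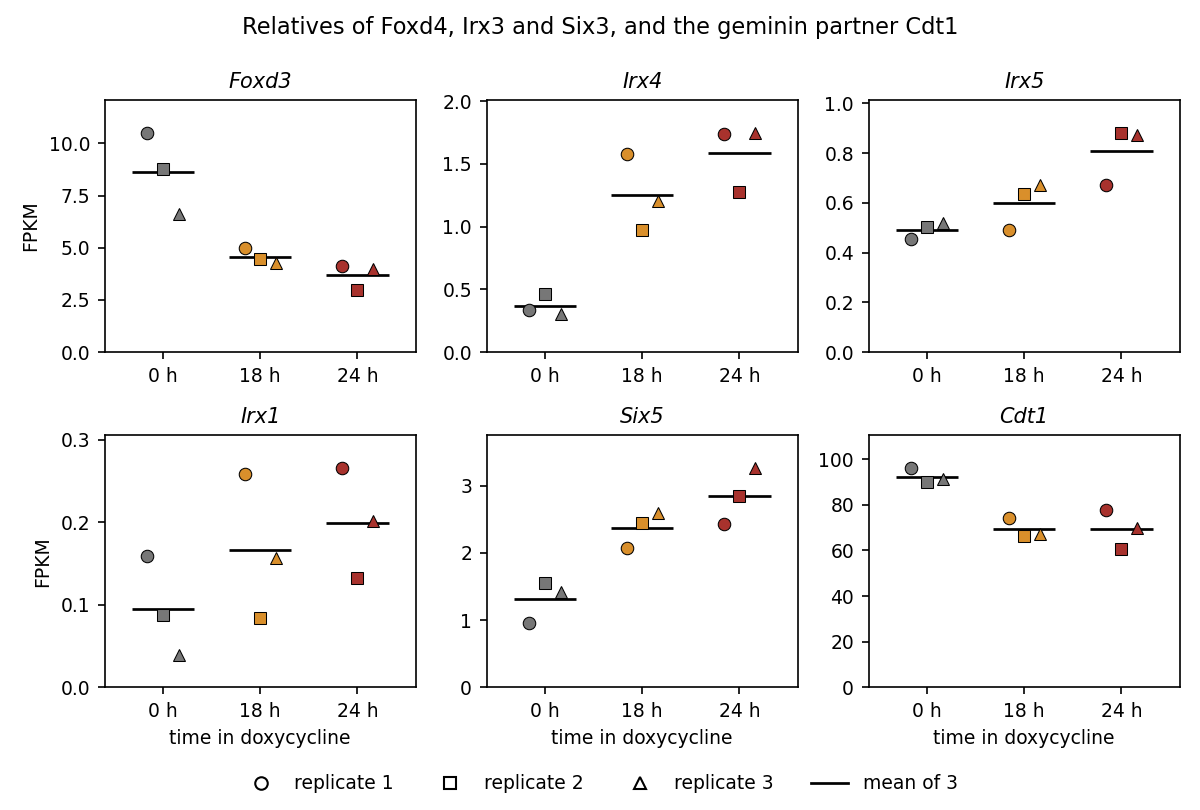
FPKM (vertical axes, linear from 0) of 6 genes related to the members by family or function in each library, with means of 3 as bars and shapes for replicate numbers. Irx4 lies between 0.970 and 1.75 after induction and at most at 0.463 before it, while Foxd3 is lower in all 6 induced libraries than in any at 0 h.

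The Zic genes encode zinc finger factors needed for neural tube closure and forebrain development. Zic2 and Zic5 are a divergent pair on chromosome 14, with starts 9758 bases apart, and were already well expressed in the untreated ESCs. Zic2 (ENSMUSG00000061524, chr14:122475435-122479852) measured 17.5, 17.7 and 24.3 FPKM in untreated cells, 22.3, 24.1 and 26.6 after 18 h and 23.4, 25.0 and 29.2 after 24 h. Replicate 3 was the highest of its group at every time, so the groups overlapped although each replicate was above its own 0 h value. The 24 h level was 1.33, 1.42 and 1.19 times the 0 h level within replicates 1, 2 and 3. The log2 fold-change of Zic2 was 0.31 after 18 h (adjusted p = 0.192, or 0.0144 with the replicate block) and 0.39 after 24 h (adjusted p = 0.0940, or 0.00499 with the block), far below the minimum of 1 in either fit.

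Zic5 (ENSMUSG00000041703, chr14:122456795-122465677) measured 10.3, 11.6 and 11.6 FPKM in untreated cells, 11.2, 12.0 and 10.5 after 18 h and 12.1, 11.9 and 11.5 after 24 h. The 3 groups overlapped. Its log2 fold-change was 0.01 after 18 h (95% interval -0.15 to 0.18) and 0.09 after 24 h (-0.08 to 0.25), so changes as large as 2-fold lay outside both intervals. Zic1 (ENSMUSG00000032368, chr9:91358058-91365810) was near the detection floor, with 2, 7 and 4 reads in untreated cells, 12, 17 and 6 after 18 h and 19, 12 and 9 after 24 h. Each 24 h library was above each 0 h library, whereas those after 18 h overlapped the 0 h libraries. Per total reads, Zic1 was 2.83-fold higher after 24 h (1.48 to 5.77, counting error only). It was upregulated in edgeR on reads with the replicate block (1.45, adjusted p = 0.0386; 3.53% of 19210 genes were), but not in edgeR without the block (1.43, adjusted p = 0.107) or in limma with no filter (0.51, adjusted p = 0.240). Zic1 overlaps Zic4 on the opposite strand, which averaged 0.0013, 0.0082 and 0.011 FPKM at the 3 times.

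Gmnn (ENSMUSG00000006715, chr13:24751845-24761923) was the most abundant member. It measured 59.8, 62.6 and 56.0 FPKM in untreated cells, 56.6, 46.6 and 51.8 after 18 h and 54.1, 50.9 and 49.3 after 24 h. All 24 h libraries were below all 0 h libraries, while those after 18 h overlapped them. Its log2 fold-change was -0.21 at both 18 h (adjusted p = 0.141) and 24 h (adjusted p = 0.119), with a 95% interval of -0.39 to -0.03 after 24 h before adjustment. With the replicate block the adjusted p at 18 h and 24 h was 0.0675 and 0.0575 in limma. In edgeR on reads with the block it was 0.0210 and 0.0128, with changes far below the minimum of 1 in each fit.

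Geminin binds and inhibits Cdt1, which loads the MCM helicase on DNA together with Cdc6 and the origin recognition complex. Cdt1 measured 89.9 to 96.0 FPKM in untreated cells, 66.5 to 74.4 after 18 h and 60.5 to 77.7 after 24 h. All induced libraries were below those in untreated cells, with log2 fold-changes of -0.41 (adjusted p = 0.0252) and -0.42 (adjusted p = 0.0192), below the minimum change. Of Cdt1, Cdc6, Orc1 and Mcm2 to Mcm7, a list of 9 genes, none reached that minimum at either time. Cdc6 had a positive log2 fold-change of 0.34 after 24 h (adjusted p = 0.0503), and the values of Mcm2, Mcm3, Mcm5, Mcm6 and Mcm7 were negative, from -0.32 for Mcm7 to -0.19 for Mcm6, while Mcm4 was at 0.0024 and Orc1 at -0.12 (adjusted p = 0.989 and 0.430).

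Hesx1 (ENSMUSG00000040726, chr14:26994416-27002329), a homeodomain repressor that is present in ESCs and later in the anterior plate and pituitary, was low and lower after induction. Its FPKM was 0.698, 0.438 and 0.443 in untreated cells, 0.307, 0.211 and 0.181 after 18 h, and 0.172, 0.103 and 0.418 after 24 h. Every induced library was below every 0 h library, though 24 h replicate 3 came close. The log2 fold-change was -0.90 after 18 h (s.e. 0.359, adjusted p = 0.154) and -1.01 after 24 h (s.e. 0.359, adjusted p = 0.103), and neither passed. Without 24 h replicate 3 the 24 h value was -1.39 and passed (adjusted p = 0.0461, with 0.0461 to 0.288 over the alternatives). Hesx1 rested on 42, 19 and 21 reads at the 3 times, and the ratio of 24 h to 0 h per total reads was 0.460 (0.259 to 0.795, counting error only).

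Pax6 (ENSMUSG00000027168, chr2:105668900-105697364) measured 0.376, 0.349 and 0.315 FPKM in untreated cells, 0.333, 0.288 and 0.209 after 18 h and 0.337, 0.422 and 0.292 after 24 h. The groups overlapped at every time. Its log2 fold-change was -0.26 after 18 h (adjusted p = 0.509) and 0.0035 after 24 h (95% interval -0.49 to 0.50), and its antisense neighbour Pax6os1 was listed at 0 in all 9 libraries. Six3 (ENSMUSG00000038805, chr17:85613608-85629302) was at the floor, with FPKM values that are whole multiples of a smallest step and correspond to 1, 3 and 2 reads in untreated cells, 0, 3 and 1 after 18 h and 2, 1 and 2 after 24 h. At or under 3 reads in every library, no fold change is given for Six3. Foxd4, also at 4 reads or fewer in each 0 h library, had at least 45 reads in each induced library, and no rise of that kind was seen in Six3. Six5, a broadly expressed relative, rose after 24 h from 0.962 to 1.55 FPKM at 0 h to 2.43 to 3.26 (log2 fold-change 1.08, adjusted p = 0.00874).

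Over all 9 members, 1 after 18 h (Foxd4) and 3 after 24 h (Foxd4, Irx3 and Zic1) had induced libraries that all lay above the 0 h libraries. Among the 7 tested this was 1 and 2, beside 14.4% and 16.7% of all genes tested. Members whose induced libraries all lay below were Hesx1 after 18 h and Gmnn and Hesx1 after 24 h, or 1 and 2 of the 7, beside 13.7% and 14.6%. Between 18 h and 24 h, 1 member did not overlap, Irx3, which was higher after 24 h (6.81% of genes tested were). In that comparison limma called 0 of the 7 members (0.0223% of all genes, or 4 genes, were called in either direction), as did edgeR and DESeq2, and Irx3 was the 1 member with an unadjusted p under 0.05 (5.59% of all genes).

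The order of mean FPKM at 0 h was Gmnn, Zic2, Zic5, Irx3, Hesx1, Pax6, Zic1, Foxd4 and Six3. In this order Irx3 and Hesx1 overlapped, as did Zic1 with Foxd4 and Foxd4 with Six3. Foxd4 moved from place 8 at 0 h to place 4 after 18 h, where it overlapped Irx3, and to place 5 after 24 h, again overlapping Irx3. Gmnn, Zic2 and Zic5 kept the top 3 places at every time, and neither they nor the gene below them overlapped. At 24 h the induced Foxd4 level of 1.36±0.608 FPKM thus remained below that of Zic5, 11.8±0.289 FPKM (mean±s.d., n=3).

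A list of 40 other genes of the neural plate programme was examined beside the members, of which 24 were abundant enough to be tested. At 18 h limma called 0 of the 24, with 5 at an unadjusted p under 0.05 beside 25.4% of all genes. With the replicate block limma called 1 (Sox1), where 307 of all 17951 genes were upregulated. By contrast edgeR and DESeq2, which tested 38 of the 40 genes, each called 3 (Lhx2, Pax3 and Sox1). Of all 19210 genes, 1.99% and 1.82% were upregulated in edgeR and DESeq2. Pax3 is not among the 24. At 24 h 3 were upregulated (2.07% of all genes were) and 0 downregulated (0.836%), beside 6 of 38 in edgeR (2.81% of all genes), 8 in edgeR with the block (3.53%) and 4 in DESeq2 (2.56%). The 3 in limma were the SoxB gene Sox1 (2.50, adjusted p = 0.00496), its relative Sox21 (1.19, adjusted p = 0.0126) and the forebrain and eye gene Lhx2 (1.60, adjusted p = 0.0113). In FPKM, Sox21 measured 0.327 to 0.607 in untreated cells and 0.980 to 1.50 after 24 h, and Lhx2 0.0209 to 0.0759 and 0.242 to 0.403, so neither overlapped. The call of Sox21 was lost without 0 h replicate 3 and without 24 h replicate 3. Lhx2, at a mean of 0.0418 FPKM in untreated cells, passed the filter only through its induced libraries, so its call and its place in these counts are descriptions. The median log2 fold-change of the 24 was 0.11 after 18 h and 0.34 after 24 h. Of the 24 values, 19 were above 0 after 24 h, as were 50.6% of all genes tested. Irx1, at a mean of 0.0952 FPKM in untreated cells, also passed the filter only through its induced libraries. The filter favoured positive values of Lhx2 and Irx1, so this median and this count are descriptions. The anterior gene Otx2 (0.14, adjusted p = 0.653) and the pan-neural gene Sox2 (-0.02, adjusted p = 0.929) did not pass after 24 h.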

How the data were processed

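For the authors, a sequencing facility made libraries with a stranded mRNA kit, sequenced them and aligned reads to GRCm38 with STAR. The submitters' processing notes name cutadapt 1.9 and edgeR 3.16.5. The deposited tables hold FPKM for 47729 genes and, for 19210 genes, a signal that the authors made from counts by scaling to library size. In the latter all values were whole multiples (within 0.05) of what 1 read is worth, and reads were recovered from them. The deposited log2 fold-changes, p-values and group means of the authors' own comparisons were not used. How multi-mapped reads were treated is not given in the sources used here.

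Genes with a mean of at least 0.1 FPKM (17951) were fitted as log2(FPKM+0.1) in limma 3.58.1 (R 4.3.3) with an intensity trend over all 9 libraries and no block. Fold changes on this scale understate those of low genes. P-values were adjusted by Benjamini-Hochberg over all genes tested, and calls needed 0.05 or less together with a log2 fold-change of 1 or more in either direction. edgeR 4.0.16 (quasi-likelihood) and DESeq2 1.42.0 were run on recovered reads as alternatives, with other pseudocounts, filters, scalings and each library left out. Simulated counts were also fitted, but only genes with more reads than Foxd4, Zic1 or Hesx1 were changed in them, and no replicate effect was drawn. That simulation does not bear on the calls of such low genes. Replicate numbers paired the samples: over 11893 genes, deviations from group means of same-numbered libraries correlated at 0.325 on average (0.211 to 0.548 over 9 pairs). Those of different numbers averaged -0.161 (-0.399 to 0.110). Deviations within a group sum to 0, so this negative value follows largely from the positive one and is not separate evidence. Replicates of a group differed beyond sampling noise (chi-square over its degrees of freedom 5.79 to 17.8). Positions are from GENCODE M21 (GRCm38). All members were named, with their relatives and neighbours, every list gene called by limma, and the 5 genes most like Foxd4. 1 relative, also on the neural plate list as first written, is not reported here. The members and lists were chosen with earlier results of these data known, and Pax3 and the list genes Otx2 and Sox2 were named after their values were seen.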

Additional observations from a re-analysis of the deposited data

How the results depend on the processing

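The number of members called at 18 h against 0 h was 1, and it was 0 with a minimum mean of 1 FPKM, a filter that Foxd4 does not pass. At 24 h it was 2, and it was 1 with a pseudocount of 1, with a minimum mean of 1 FPKM and with a minimum log2 fold-change of 2, 3 in edgeR with the block (with Zic1), and between 1 and 2 when single libraries were left out. Between 24 h and 18 h it was 0 in every alternative run. The list of neural plate genes gave 0 calls at 18 h, but 1 with a pseudocount of 0.01, a minimum mean of 1 FPKM, the replicate block or no minimum fold-change (Sox11, lower, in the last), 3 in edgeR, edgeR with the block and DESeq2, and 0 to 1 without single libraries. At 24 h it gave 3, but 1 with a pseudocount of 1, a minimum mean of 1 FPKM or a minimum log2 fold-change of 2, 6 in edgeR and 8 in edgeR with the block, and 2 to 3 without single libraries.

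Over all genes, limma called 369 at 18 h, 521 at 24 h and 4 between the times. With a pseudocount of 1 this was 120, 151 and 0, and with 0.01 it was 406, 565 and 1. A minimum mean of 1 FPKM gave 210, 265 and 0. The replicate block gave 506, 630 and 4 in limma and 816, 1018 and 9 in edgeR. Calls over all genes with no minimum fold-change or with a minimum of 2 are not given here. The member and list counts under those settings therefore cannot be set beside a share of all genes. edgeR without the block called 583 at 18 h and 0 between the times, where DESeq2 called 2. Leaving out single libraries gave as few as 223 at 18 h (without 18 h replicate 3) and 332 at 24 h (without 24 h replicate 3). Between the times it gave from 0 (for example without 18 h replicate 1) to 8 (without 0 h replicate 3). The share of upregulated genes among calls at 24 h was 71.2%, and 59.1% after median centring.

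Of 431 single-member values, 410 kept their direction and side of the threshold. Irx3 at 24 h did not pass with a pseudocount of 1 (0.63), and the cause was not tested. Values near 0 changed sign. Zic5 at 18 h was -0.025 after median centring and -0.045 to 0.059 without single libraries. Pax6 at 24 h was -0.059 after quantile normalization, -0.073 after median centring and -0.11 to 0.10 without single libraries. Between 24 h and 18 h, Gmnn was 0.029 after quantile normalization and -0.075 to 0.065 without single libraries, Hesx1 was 0.0064 in edgeR and -0.48 to 0.19, Foxd4 was -0.032 to 0.63 and Zic2 was -0.0058 to 0.15. With the replicate block no other call of a member or list gene changed in limma. The depth limits Zic1, Six3, Hesx1 and Foxd4 at 0 h, where single reads decide the values.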
